A study of Homo sapiens with 18 samples.

Results

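The loci described here are the stretches of human chromosome 8 that carried H3K4me1 in MOLM-13 cells. They were obtained by merging overlapping intervals of the H3K4me1 count files and keeping those on chromosome 8, which gave 2273 loci of 34932 in all. Each locus was represented by the count of its widest interval. MOLM-13 is an established acute myeloid leukemia line with a KMT2A rearrangement. Cells were given 100 nM PR-957 (ONX-0914), an inhibitor of the immunoproteasome subunit PSMB8, or the diluent DMSO for 72 h per the labels, and a legend of the paper gives another time. Cut&Tag, in which a tethered transposase tags DNA around an antibody-bound histone mark, was performed for 4 modifications with 2 libraries per treatment. Of 18 samples, 16 had counts and were used. IgG controls, 2 samples, are not analysed here. The comparison asks how histone modifications on the chromosome differ between cells with and without inhibitor. The chromosome was chosen by a measured value, the share of its H3K4me1 loci called higher in PR-957, which was above that of other chromosomes, so H3K4me1 differences between treatments are given as a description without p-values.

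H3K4me1 is laid down by the KMT2C and KMT2D methyltransferases and marks enhancers, both active and poised, as well as the flanks of promoters. H3K27ac marks active enhancers and promoters, H3K4me3 marks promoters, and H3K27me3 is the repressive mark of Polycomb. Chromosome 8 carries MYC and its distant blood enhancers, and gain of the chromosome is frequent in myeloid leukemia. MOLM-13 is known to carry extra copies of chromosome 8. Copy number was not measured here, and its part in the levels below was not tested.

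Libraries held 4242181 to 8400493 locus counts for H3K4me1, 2958869 to 4265224 for H3K27ac, 7643484 to 11314680 for H3K4me3 and 2644010 to 3235072 for H3K27me3. Myeloid identity was seen at promoters, with an H3K27ac locus at 7 of 7 myeloid genes and at 0 of 5 genes of other cell types. H3K4me3 marked 6 of the 7 myeloid genes, all but MPO, and of the other genes it marked COL1A1 at 14.0 CPM, the count scaled to a common library size. Since each library pools many cells, a mark in fewer cells and a weaker mark per cell cannot be told apart. The labels do not say whether replicates were separate cultures, so p-values measure the spread between these libraries, which may be technical.

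Chromosome 8 was densely covered by enhancer marks, on interval lists that the DMSO and PR-957 libraries share. It held 15.7 H3K4me1 loci per Mb, rank 4 among the 22 autosomes, and 20.2 H3K27ac loci per Mb, rank 2. H3K4me3 loci were at 4.81 per Mb, rank 14, and H3K27me3 loci at 7.39 per Mb, rank 4. All 2273 H3K4me1 loci had enough counts to be tested. H3K4me1 loci covered 7.33% of the chromosome and H3K27ac loci 7.70%, against 2.01% for H3K4me3 and 3.16% for H3K27me3. The H3K4me1 loci had a median width of 3129 bp, close to the 3132 bp of other chromosomes. Their median DMSO level was 4.74 CPM per kb, against 4.22 elsewhere, and their median GC content was 43.8%, against 45.8%.

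Promoter loci of chromosome 8 carried more signal per length in DMSO than those of other autosomes. Over all loci this did not hold for H3K4me3, H3K27ac and H3K27me3. Promoter loci lay within 2 kb of a transcription start site (TSS) of a protein-coding gene. H3K4me3 loci also had to overlap H3K27ac, and H3K27ac and H3K4me1 loci had to overlap H3K4me3. H3K27me3 loci had no such condition. Counts were scaled by library totals here. The median H3K4me3 level was 30.6 CPM per kb on chromosome 8 (n = 363 loci) and 18.5 on the other autosomes. That is a ratio of 1.66, the highest of 22. The ratio was 1.65 in DMSO replicate 1 and 1.67 in replicate 2. For H3K27ac the levels were 19.3 and 12.9 CPM per kb, a ratio of 1.49, second to chromosome 13. For H3K27me3 the ratio was 1.20 and for H3K4me1 1.11. Over all tested loci, the median H3K4me3 level was 10.1 CPM per kb on chromosome 8 and 12.5 on other chromosomes. For H3K27ac it was 5.11 against 5.81, and for H3K27me3 3.83 against 4.00. Chromosome 8 had rank 21 of 22 there for H3K4me3 and for H3K27ac. These are ranks of chromosomes within 2 libraries, with no test, since loci of 1 chromosome share copy number and depth.

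The loci were not spread evenly. The plot of loci along the chromosome shows their number peaking at 278 in the 20 to 30 Mb bin of the short arm, at 236 between 100 and 110 Mb and at 259 between 120 and 130 Mb, the bin that holds MYC and TRIB1. The arms were divided at the stretch from 43254568 to 46214977 that holds the centromere, a choice made after seeing the data because the widest stretch without a locus lay elsewhere. The short arm held 645 loci, or 14.4 per Mb, and the long arm 1628, or 16.2 per Mb. Divided at 16 Mb, a bound chosen after seeing the data, the short arm held 2.25 loci per Mb below it. From there to the centromere stretch it held 21.2 per Mb, more than the long arm. H3K27me3 loci were most numerous between 20 and 30 Mb, at 235, where EBF2, NEFM and NEFL lie.

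The distal short arm held few listed loci of any mark. The widest stretch without an H3K4me1 locus ran from 6561602 to 10734122 (4.17 Mb), and the second widest, from 10734866 to 13854003 (3.12 Mb), followed after 1 locus. Between 6.6 and 16 Mb, bounds chosen after seeing the data, there were 2 H3K4me1 loci, 3 H3K27ac loci, 4 H3K4me3 loci and 4 H3K27me3 loci. Of 90 protein-coding genes there, 4 had an H3K4me3 locus at a TSS, namely PINX1, FAM167A, FAM86B1 and FAM86B2, of which the last pair are near-identical copies and uncertain. GATA4, a developmental transcription factor, was the gene nearest to 2 weak H3K27me3 loci. One (11679013 to 11680275) held 92 and 110 counts in DMSO and 98 and 91 in PR-957, and the other (11701564 to 11702438) 36 and 50 in DMSO and 48 and 40 in PR-957. Genes that most cells express also had no locus of any mark at their TSS, among them TNKS, ERI1, NEIL2, CTSB, which encodes the protease cathepsin B, and FDFT1, which encodes squalene synthase. From 16 Mb on, 127 of 177 short arm genes (71.8%) had H3K4me3 at a TSS, close to the 282 of 412 (68.5%) of the long arm and to the 64.2% of all autosomes.

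Genes whose first TSS lay in sequence that also occurs in alternate sequences of chromosome 8 mostly lacked an H3K4me3 locus. The hg38 file used here holds 16 alternate sequences of chromosome 8, and exact matches of 50 bases to them were counted within 2 kb of each gene's first TSS. Copies elsewhere in the assembly were not counted, and whether the genes are active in these cells was not tested. Of 68 genes with at least 50% of that window in alternate sequences, 1 had an H3K4me3 locus (1.47%), against 415 of 624 other genes (66.5%). Between 6.6 and 16 Mb, 38 of the 90 genes had such a window. Of the remaining 52 genes there, 4 had H3K4me3 (7.69%), against 408 of 564 such genes from 16 Mb on (72.3%). By length, 7.65% of the stretch from 6.6 to 16 Mb occurred in alternate sequences. The share was 31.2% under 6.6 Mb, where 34 H3K4me1 loci were listed, and 2.60% from 16 Mb on. Runs of genes without an H3K4me3 locus were not limited to chromosome 8. The longest run of neighbouring genes without an H3K4me3 locus was of 179 genes on chromosome 6, across the major histocompatibility complex, where myeloid cells express HLA genes, and the run from ANGPT2 to SOX7 on the short arm of chromosome 8, of 65 genes, had rank 3. A missing locus is therefore not read as a missing mark here. The sources used here do not say which sequences the authors' index held, and whether DNA of the 52 other genes is present in these cells was not tested.

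**Figure D1:**
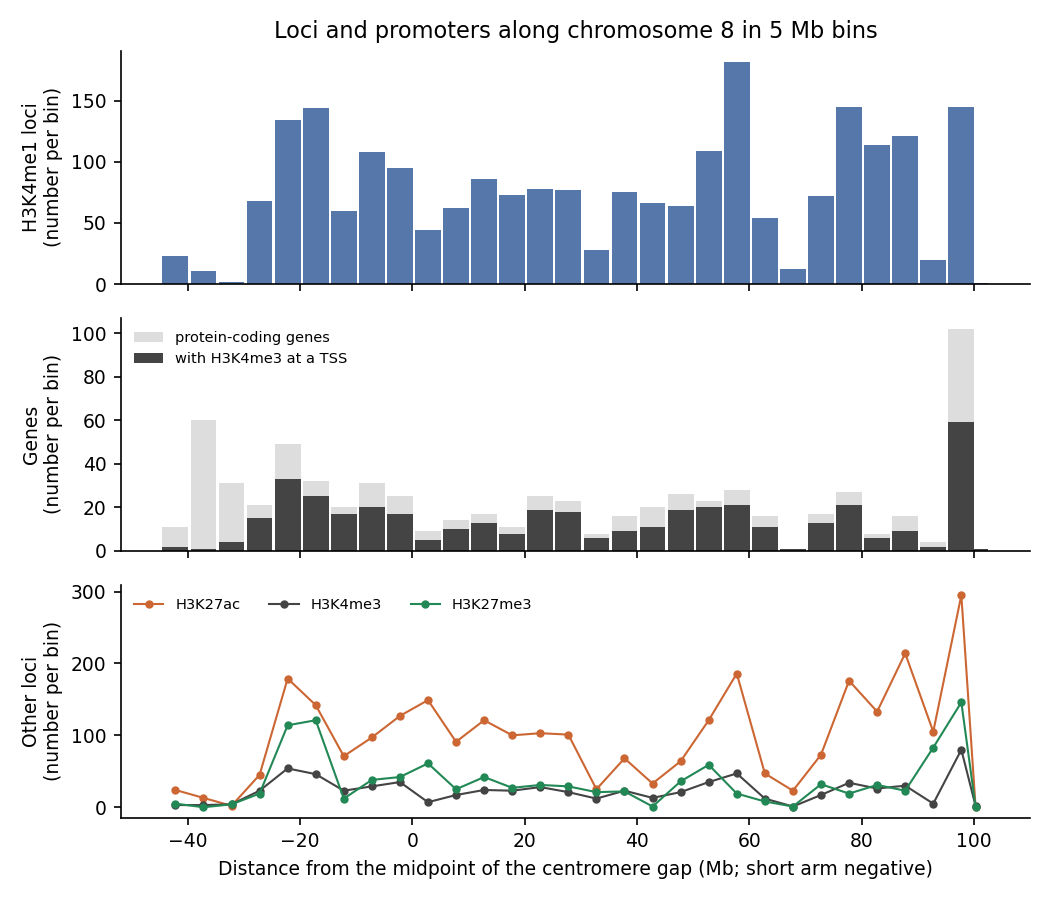
Number of loci and genes in 5 Mb bins of chromosome 8, by distance in Mb from the midpoint of the stretch that holds the centromere. Bars give H3K4me1 loci, genes with and without H3K4me3 at a TSS, and lines the loci of the other modifications. The bins of the distal short arm hold many genes, few H3K4me3 promoters and few listed loci of any mark.

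Most H3K4me1 loci lay away from promoters. Within 2 kb of a TSS were 450 loci (19.8%, against 25.5% on other chromosomes), and 1823 (80.2%) were distal. The share that overlapped H3K27ac was 55.3%, against 40.2% elsewhere. The class of distal loci with H3K27ac but neither H3K4me3 nor H3K27me3, the usual pattern of an active enhancer, made up 29.5% of loci, against 14.6% elsewhere. Distal loci with H3K4me1 alone were 39.1%, against 50.2%. A further 199 distal loci (8.76%) carried both H3K27ac and H3K4me3, and their median DMSO level of 12.1 CPM per kb was above the 7.66 of the same class elsewhere.

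Most of the strongest and widest loci lay over genes. The highest level was at PLEC, which encodes the cytoskeletal linker plectin (143926991 to 143968183), at 1972 and 1744 CPM in DMSO and 1621 and 1821 in PR-957. The widest locus (72.9 kb) was at PTK2B, a focal adhesion kinase of leukocytes, at 1555 and 1351 CPM in DMSO and 1205 and 1252 in PR-957. The SLA locus, of a Src-like adaptor of blood cells, held 907 and 814 CPM in DMSO and 740 and 770 in PR-957. The other broad loci were at DENND3, at RAB11FIP1 and 306 kb from TSNARE1. The log2 fold changes of these 6 loci lay between −0.24 and −0.11, and at PLEC and near TSNARE1 the libraries of the treatments overlapped.

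H3K4me1 on chromosome 8 was slightly higher after PR-957. The median log2 fold change over the 2273 loci was 0.088, against 0.005 over all loci tested, and 60.9% of loci lay above 0, against 50.7%. The size was small, since 85.3% of loci were within 1.5-fold. Chromosomes 13, 4 and 5 had higher medians, at 0.100, 0.097 and 0.093. H3K4me1 counts on chromosome 8 made up 9.02% and 9.25% of the DMSO libraries and 9.62% and 9.38% of those of PR-957, means of 9.13% ± 0.159 and 9.50% ± 0.164 (SD, n = 2). The treatments did not overlap, and the order of the 4 shares was the reverse of the order of their library totals. The part of depth in that order was not tested.

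**Figure D2:**
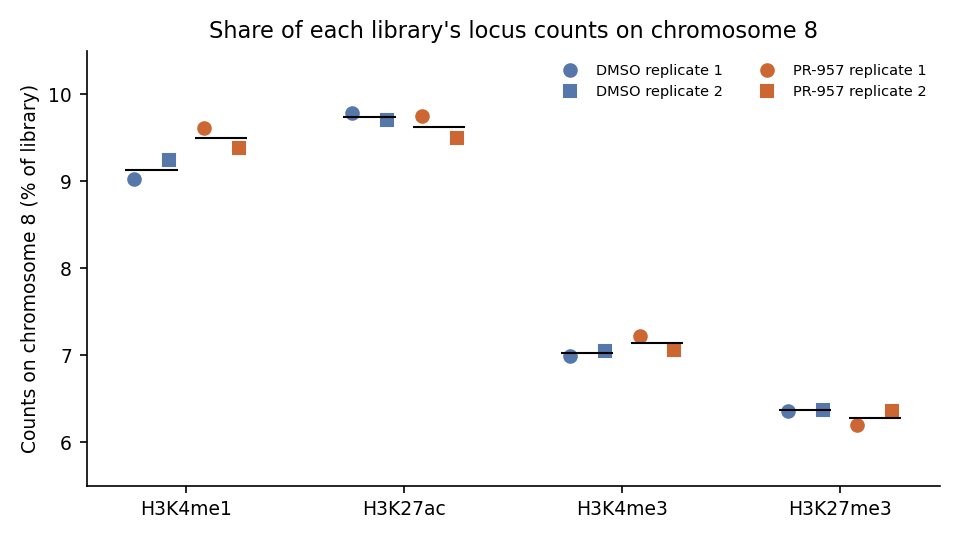
Percent of each library's locus counts that lie on chromosome 8, for 4 modifications. Points are libraries, blue for DMSO and orange for PR-957, black lines are means of 2 libraries, and the axis does not start at 0. For H3K4me1 both PR-957 libraries lie above both DMSO libraries, 9.62% and 9.38% against 9.02% and 9.25%.

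Low GC content moved with a higher H3K4me1 fold change over chromosomes and within chromosome 8. The GC-rich chromosomes 19, 22 and 16, with medians of 53.4%, 51.7% and 49.8% GC, had medians of −0.13, −0.11 and −0.11. On chromosome 8 the lowest of 4 classes of loci by GC content, divided at the quartiles of all loci, had a median of 0.29 (0.22 on other chromosomes), and the highest class −0.11 (−0.15). Chromosome 8 had 34.4% of its loci in the lowest class and 13.7% in the highest. In each of the 4 classes its median was above that of the other chromosomes pooled. The differences were 0.073, 0.036, 0.047 and 0.045 from the lowest to the highest class. Ranked against single chromosomes, its median had rank 1, 3, 4 and 4 in these classes, so some chromosomes were higher in all but the lowest class. With the trend over GC removed, the median was 0.039, against −0.009 over all loci, the highest of 22.

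**Figure D3:**
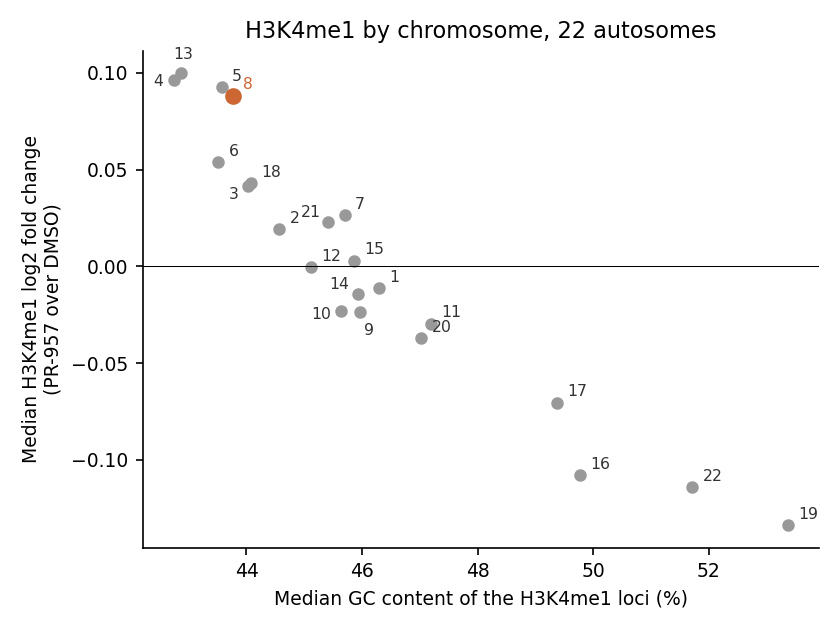
Median H3K4me1 log2 fold change (PR-957 over DMSO) against the median GC content in percent of the H3K4me1 loci, 1 point per autosome. Chromosome 8, at 43.8% GC and 0.088, lies among the chromosomes with low GC and high medians, and chromosome 19 lies at the other end.

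Along the chromosome, 13 of 15 bins of 10 Mb (86.7%) had a median above that of all loci. The highest was 0.31 at 70 to 80 Mb, a bin of low GC content (41.6%). The bins at 20 to 30 Mb and from 140 Mb, at −0.03 and −0.08, were the exceptions, and the latter was GC-rich at 54.5%. The median was 0.036 on the short arm and 0.11 on the long arm. In the plot of fold changes along the chromosome, the H3K27ac medians of the same bins ran from −0.073 to 0.13 and the H3K4me3 medians from −0.035 to 0.086. The first bin of H3K27me3, at 0.50, rests on 3 loci.

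**Figure D4:**
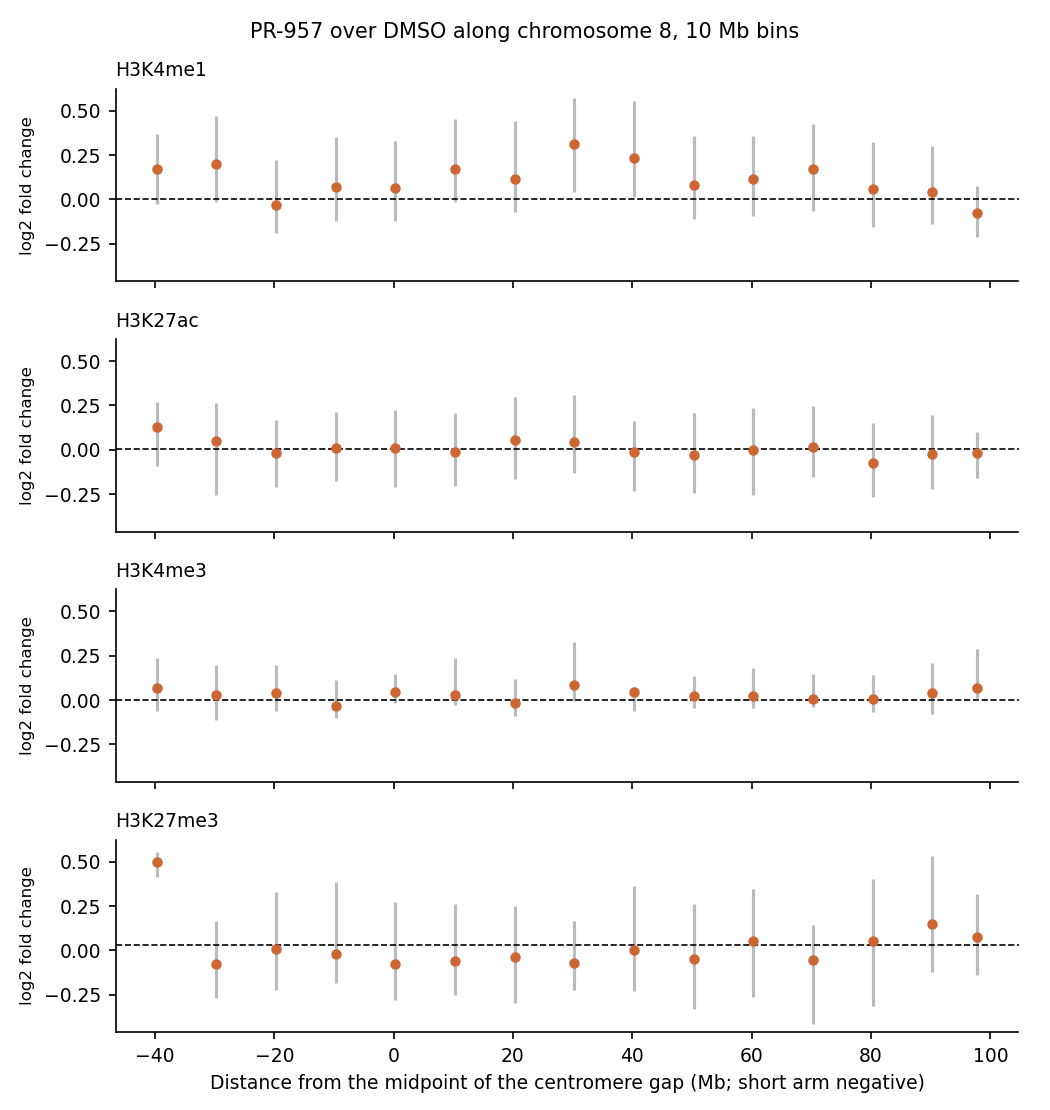
Log2 fold change (PR-957 over DMSO) in 10 Mb bins of chromosome 8 by distance in Mb from the midpoint of the centromere stretch. Points are medians over loci, grey lines run from the lower to the upper quartile, and the dashed line is the median of all loci of that modification. H3K4me1 medians lie above the line in 13 of 15 bins.

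By class, distal loci with H3K4me1 alone had the median 0.28, against 0.13 for that class elsewhere. Distal loci with only H3K27ac beside it had 0.077, against −0.036. Loci near a TSS had −0.046, against −0.12, and loci with H3K4me3 −0.080, against −0.14. Of 4 classes by level, the weakest loci had a median of 0.39 (0.28 elsewhere) and the strongest −0.019 (−0.12). The 61 promoter loci with H3K4me1 alone had 0.31, against 0.075. Chromosome 8 was above the other chromosomes by 0.11, 0.14, 0.11 and 0.10 from the weakest to the strongest class. The part of level in this difference was not tested.

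Of the 2273 loci, 71 (3.12%) were called higher and 13 (0.572%) lower in PR-957 by edgeR at an adjusted p of 0.05, where the background over all loci was 0.79% higher and 0.767% lower. This is the contrast that singled out the chromosome, so nothing is read from these shares. The next highest share was 1.39%, on chromosome 6. Both PR-957 libraries lay above both DMSO libraries at 739 loci (32.5%, background 23.8%) and below them at 410 (18.0%, background 24.0%). With the GC trend removed, 22 loci were higher (0.968%, background 0.384%) and 16 lower (0.704%, background 0.318%). That moved the share of higher calls from 84.5% to 57.9%. DESeq2 called 1 higher and 2 lower, and without DMSO replicate 2 none was called.

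The 71 higher loci were mostly distal, as were the loci of the chromosome. By level, 11 were in the weakest of the 4 classes (2.1% of its 522 loci) and 14 in the next (2.9% of 484). The third class held 22 (4.1% of 543) and the strongest 24 (3.3% of 724). Their median level was 17.3 CPM and their median GC content 41.0%, against 15.0 CPM and 43.8% over all loci of the chromosome. Of the 71, 66 lay over 2 kb from a TSS, against 80.2% of all loci of the chromosome, and 29 over 50 kb. The long arm, with 1628 of the 2273 loci, held 59 of the 71. Their log2 fold changes ran from 0.42 to 2.53 with a median of 0.88, and 27 reached 2-fold. The 13 lower loci were stronger, at a median of 40.0 CPM, and richer in GC, at 49.0%. Of the 13, 7 overlapped H3K27me3, against 7.2% of all loci of the chromosome. Log2 fold changes of the 13 ran from −0.74 to −0.48.

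Of the 5 higher loci with the smallest p-values, 3 were intergenic and over 200 kb from a TSS. The first (29835414 to 29838034) lay 232 kb from SARAF, a regulator of calcium entry, and held 67 and 59 counts in DMSO and 94 and 175 in PR-957. That is 8.37 and 8.96 CPM against 21.5 and 26.7, with a log2 fold change of 1.49 (SE 0.22). A locus 238 kb from ANGPT1, which encodes angiopoietin-1 (107735817 to 107739396), held 7.37 and 12.0 CPM in DMSO and 24.1 and 21.4 in PR-957. These loci carried none of the other marks. The PR-957 libraries stood above both DMSO libraries, as they did at all 71 higher loci.

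A neighbouring locus 240 kb from RSPO2, which encodes a Wnt agonist (107838102 to 107841944), was the weakest of the 5, at 5.12 and 3.80 CPM in DMSO and 17.4 and 10.4 in PR-957. An intronic locus of JPH1, a junctophilin (74292354 to 74299853), overlapped H3K27ac and held 58.8 and 62.3 CPM in DMSO and 94.9 and 93.5 in PR-957. An intronic locus of PXDNL, a peroxidasin-like gene (51393941 to 51397026), also with H3K27ac, held 35.0 and 38.3 CPM in DMSO and 51.8 and 64.2 in PR-957. The loci with H3K27ac started from higher levels and changed less, by 0.64 and 0.68 on the log2 scale.

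The 5 lower loci lay at or near genes, 3 of them on the short arm between 22 and 24 Mb. At PDLIM2, a PDZ and LIM domain protein (22574086 to 22582866), levels were 92.7 and 85.4 CPM in DMSO and 61.0 and 58.5 in PR-957. At EGR3, an early growth response factor (22693160 to 22699466), they were 40.2 and 40.7 against 23.8 and 27 CPM. At TNFRSF10C, a decoy receptor for TRAIL (23100699 to 23106543), they were 52.0 and 58.5 against 30.3 and 39.0 CPM. The log2 fold changes were −0.58, −0.66 and −0.65. The treatments were separate here, as at all 13 lower loci, so nothing further is read from that.

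On the long arm, a locus 38.6 kb from RRM2B, a ribonucleotide reductase subunit (102194623 to 102200183), held 124.9 and 134.3 CPM in DMSO and 86.2 and 92.1 in PR-957. An intronic locus of ASAP1, an Arf GTPase activator (130436383 to 130439417), held 30.0 and 41.0 CPM in DMSO and 25.4 and 17.7 in PR-957. At these loci, too, the treatments were separate, though by less at ASAP1. Of these 10 loci, DESeq2 called 1 higher and 2 lower, leaving out DMSO replicate 2 left none, leaving out DMSO replicate 1 left 3 and 3, and leaving out either PR-957 replicate left 4 and 2.

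**Figure D5:**
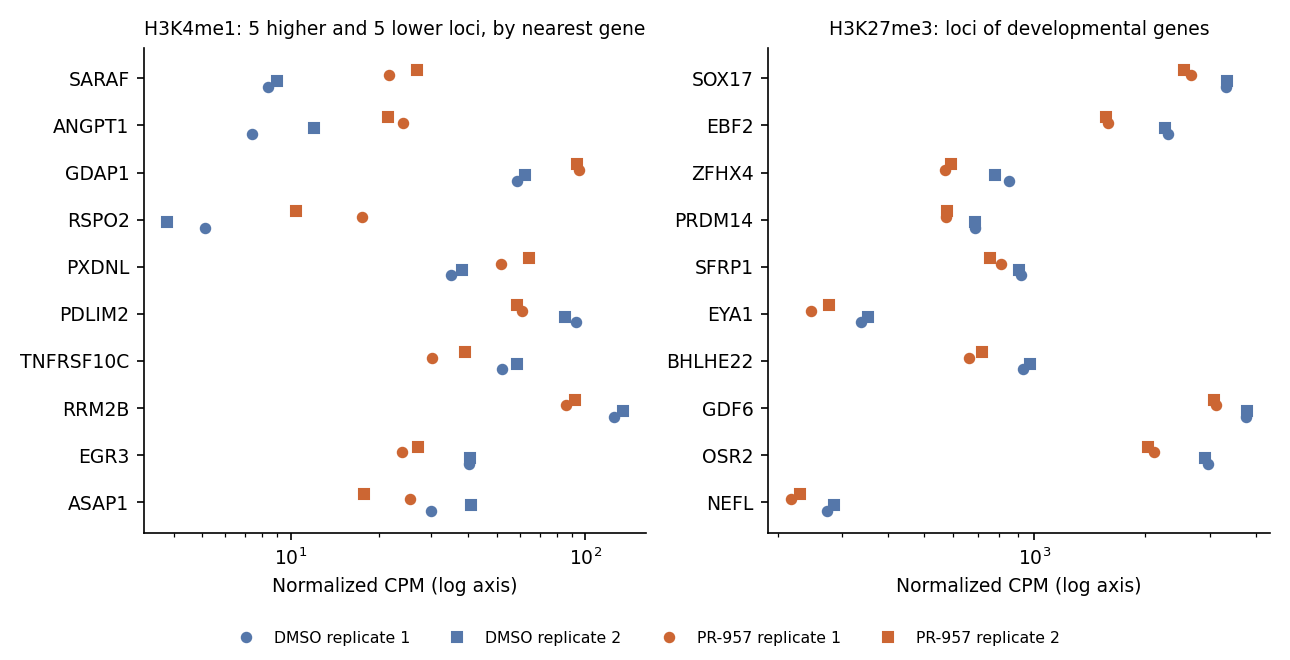
Normalized CPM on a log axis in each library for the 5 higher and 5 lower H3K4me1 loci (left, by nearest gene) and for the H3K27me3 loci of the developmental genes named in the text that passed the test (right). Blue points are DMSO and orange points PR-957, circles replicate 1 and squares replicate 2. Within each row the treatments do not overlap, which is no further result since the rows were picked by their difference between treatments.

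H3K27ac, measured in other libraries, changed little on chromosome 8. By edgeR, 0 loci were higher (background 0.0229%) and 3 lower (0.108%) of 2922 tested. At an unadjusted p under 0.05 there were 59 higher and 186 lower, together 8.39% of loci, against 6.84% over all chromosomes. The share of lower calls was close to the background, and nothing particular to the chromosome is read from it. DESeq2 called none, and over all intervals 4 were higher and 12 lower. The median log2 fold change was −0.014, against 0.007 over all loci. The share of H3K27ac counts on the chromosome was 9.79% and 9.70% in DMSO and 9.74% and 9.49% in PR-957 (exact permutation test, p = 0.667). With 2 libraries against 2, the smallest p it allows is 0.333.

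The 3 lower H3K27ac loci were distal. An intronic locus of ASAP1 (130347060 to 130352133) held 61.1 and 51.7 CPM in DMSO and 32.1 and 33.1 after PR-957, with a log2 fold change of −0.80 (SE 0.17, edgeR adjusted p = 0.00904). A locus 193 kb from MYC (127937504 to 127952868) held 116.2 and 118.4 CPM in DMSO and 92.5 and 73.1 in PR-957, a change of −0.52 (SE 0.11, adjusted p = 0.00949). The third lay 127 kb from CLVS1 and fell from 78.6 and 84.1 CPM to 63.8 and 48.1 (adjusted p = 0.0480). These calls were fragile: of 15 settings, the first 2 were called in 10 and the third in 4. At the MYC promoter, H3K27ac was 217.2 and 205.9 CPM in DMSO and 179.9 and 186.8 in PR-957, which did not pass (adjusted p = 0.517).

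H3K4me3 was higher at 2 loci (background 0.167%) and lower at 1 (0.031%) of 698. A locus 208 kb from OXR1, an oxidation resistance gene (106058284 to 106061949), rose from 19.9 and 24.3 CPM to 45.0 and 38.5 (log2 fold change 0.92, SE 0.13, edgeR adjusted p = 2.37e-08), and was called in all 15 settings. A locus 42 kb from NEFL (24999028 to 25002254) rose from 23.1 and 19.5 CPM to 37.5 and 30.5 (0.68, adjusted p = 0.00199), but was called in 12 of 15 settings and not by DESeq2 (adjusted p = 0.497) nor without DMSO replicate 2 or PR-957 replicate 1. The promoter of STAU2, an RNA-binding protein (73745126 to 73749644), fell from 252.4 and 269.2 CPM to 190.6 and 200.4 (−0.42, adjusted p = 8.92e-05), and was called in 14 settings, all but that without DMSO replicate 2 (adjusted p = 0.256). Over the 698 loci the median log2 fold change was 0.033, against −0.001 over all chromosomes, rank 2 among the autosomes. Of these loci 59.6% lay above 0, against 49.7%. Both PR-957 libraries lay above both DMSO libraries at 21.1% of them and below at 11.0%. Without PR-957 replicate 1 the median was 0.002, against −0.003 over all chromosomes. The share of H3K4me3 counts on the chromosome was 6.99% and 7.05% in DMSO and 7.22% and 7.06% in PR-957 (exact permutation test, p = 0.333, the smallest possible).

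H3K27me3 was the mark with the most tested change. With TMM scaling and a minimum count of 10, nearly all of it was downward. By edgeR, 26 of 938 tested loci were lower (2.77%, background 3.86%) and 1 was higher (0.107%, background 0.17%), while 134 further loci were too low in count to test. The lower share is below the background, and nothing particular to chromosome 8 is read from it. Of the 26, 22 lay within 2 kb of a TSS, 11 were on the short arm and 15 on the long arm, and their log2 fold changes ran from −0.81 to −0.23. By library size alone, without the TMM factor, 10 loci were lower and 17 higher, and the median of all loci moved from 0.032 to 0.24, so each change is relative to the rest of the library. With loess offsets, 12 were lower and 7 higher. A mean count of at least 50, also with TMM scaling, gave 18 lower and 11 higher. Median-of-ratios factors gave 20 and 1, and the replicate block 25 and 0. Without DMSO replicate 1 or 2 there were 10 or 11 lower calls.

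Of the domains that fell, the 3 with the smallest p-values were at EBF2, at OSR2 and STK3, and at PTK2. The EBF2 domain, over an early B-cell factor gene (26029125 to 26054776), held 2309 and 2270 CPM in DMSO and 1591 and 1569 after PR-957, with a log2 fold change of −0.54 (SE 0.062, edgeR adjusted p = 4.48e-15). The domain at OSR2 and STK3 (98926779 to 98958147) fell from 2975 and 2912 CPM to 2116 and 2041 (−0.50, adjusted p = 7.09e-14). The widest (89.7 kb), at PTK2, the focal adhesion kinase gene (140989320 to 141078999), fell from 8879 and 8591 CPM to 6535 and 6151 (−0.46, adjusted p = 6.17e-13). With loess offsets the changes at EBF2, STK3 and PTK2 were −0.28, −0.24 and −0.13, and by library size only −0.33, −0.29 and −0.25. EBF2 and STK3 were called in all 15 settings and PTK2 in 14, with an adjusted p of 0.0986 without DMSO replicate 1. The single higher locus, 66.1 kb from HEY1, had 1 and 0 counts in DMSO and 16 and 15 in PR-957 (adjusted p = 0.0453), too few for a fold change.

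Among 24 developmental genes listed for the chromosome, 21 had a tested H3K27me3 locus, at 20 distinct loci. Of these genes 12 fell and none rose, where 3.86% of all tested loci were lower. Their median was −0.26, against 0.032 over all loci. At a mean count of at least 50, 11 of 19 genes fell, where 8.31% of all loci were lower. The list was chosen with earlier results known, so nothing particular to developmental genes is read from these counts. Among the 12 genes, beside EBF2 and OSR2, were SOX17, ZFHX4, PRDM14, SFRP1, EYA1, BHLHE22, GDF6 and NEFL. SOX17, an endoderm factor, fell from 3325 and 3354 CPM to 2664 and 2554, a log2 fold change of −0.36 (SE 0.060). ZFHX4, a zinc finger homeobox gene, fell from 854 and 780 CPM to 570 and 592. GATA4, HEY1, PENK, NRG1, HAS2, CRH, HNF4G, TOX and NEFM did not pass, and CRH had the highest value of the list, 0.52 on the log2 scale from few counts. With library size only or loess offsets 7 genes fell, and without DMSO replicate 1 or 2 it was 5 or 6. In those settings, too, none rose.

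In the other lists no gene passed in any modification. Myeloid and leukemia genes had a median H3K4me1 log2 fold change of −0.20 over 11 loci, from −0.31 at TNFRSF10B, a TRAIL receptor, to 0.69 at RAD21, a cohesin subunit. At LYN, a Src family kinase, H3K4me1 was 402.9 and 391.8 CPM in DMSO and 352.5 and 353.5 in PR-957. TRIB1, a pseudokinase that degrades C/EBP factors, held 707 and 684 CPM of H3K27ac in DMSO and 687 and 681 in PR-957. CEBPD, a myeloid transcription factor, held 555 and 549 CPM of H3K27ac against 525 and 557. LY96, which presents lipopolysaccharide to TLR4, had the highest H3K27ac log2 fold change of the list, 0.55 (edgeR adjusted p = 0.702). Its levels were low, at 18.4 and 10.9 CPM in DMSO and 23.3 and 20.8 in PR-957. PTK2B had the lowest H3K27ac log2 fold change, −0.29 (adjusted p = 0.592). The MYC promoter held 18.5 and 22.5 CPM of H3K4me1 in DMSO and 19.7 and 14.7 in PR-957, overlapping values.

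Proteostasis, ubiquitin and stress genes had a median H3K4me1 change of 0.010 over 14 loci, from −0.33 at BNIP3L, a mitophagy receptor, to 0.57 at RB1CC1, an autophagy scaffold. GSR, glutathione reductase, had the highest H3K4me3 log2 fold change of that list, 0.156 (edgeR adjusted p = 0.724). It held 174.7 and 177.6 CPM in DMSO and 193.9 and 198.6 in PR-957. BNIP3L had the highest H3K27ac log2 fold change, 0.35, and BAG4, a co-chaperone of HSP70, the lowest, −0.19. HSF1, the heat shock factor, had no locus within 2 kb of a TSS and lies in a run of 12 genes without an H3K4me3 locus. Replication and repair genes ranged in H3K4me1 from −0.51 at MYBL1 to 0.81 at WRN, the Werner helicase, with a median of −0.25, and at WRN the counts were low, at 1.12 and 2.43 CPM in DMSO and 1.60 and 4.28 in PR-957. PBK, a mitotic kinase, had the lowest H3K27ac log2 fold change, −0.45 (adjusted p = 0.642). Ribosome and translation genes ranged from −0.59 at RPL30 to 0.32 at EIF3E, with a median of −0.035.

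At the H3K4me1 loci that differed, the other marks mostly did not pass the test. An H3K27ac locus overlapped 32 of the 71 higher loci, with 0 called and a median of 0.13, against −0.037 over the 1256 H3K4me1 loci of the chromosome that had such a partner. Of the 32, 21 lay above 0, against 43.1% of the 1256. At an unadjusted p under 0.05 by edgeR there were 4, near ZNF703, ZMAT4, SDCBP and RGS22, with log2 fold changes from 0.36 to 1.21. Over the 1256 loci the share with such a p was 13.4% in either direction and 3.11% in the higher direction, and with 4 loci and none called nothing particular is read from the count.

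At the 13 lower loci, 8 had H3K27ac with a median of 0.002 and 0 called. The nearest to the threshold was that near RRM2B, at 47.0 and 54.1 CPM in DMSO and 33.8 and 29.1 in PR-957 (log2 fold change −0.69, edgeR adjusted p = 0.0950). At PDLIM2, H3K27ac was 96.2 and 99.0 CPM in DMSO and 97.2 and 99.4 in PR-957, and at EGR3 it was 197.0 and 230.1 against 217.1 and 206.7, so the treatments overlapped there in spite of lower H3K4me1. H3K27me3 overlapped 7 of the 13 and was lower at 3, namely DUSP4, TCF24 and a domain 199 kb from CLXN. Over all 158 H3K4me1 loci of the chromosome with a tested H3K27me3 partner it was lower at 30 (19.0%), which share 21 H3K27me3 loci, so such calls were common there. The DUSP4 domain, of a MAP kinase phosphatase, fell from 793 and 857 CPM to 636 and 638 (−0.37, adjusted p = 4.25e-06). At ADGRB1 it was 319 and 321 CPM in DMSO and 362 and 384 in PR-957, which did not pass (adjusted p = 0.115).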

How the data were processed

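For peaks the authors named MACS2 or SEACR, after alignment by Bowtie2 against the hg38 assembly. The submitters' processing notes list Trimmomatic 0.39, Bowtie2 2.2.5, Picard 2.27.1, SAMtools 1.7, SEACR 1.3 and deepTools 3.5.1. The deposited values are whole-number counts per interval without normalization, on 1 interval list per modification. The counting tool and the treatment of duplicates are not given in the sources used here, and broad intervals collect more counts.

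Intervals that overlapped by at least 1 bp were merged, and the widest was counted. Coordinates are as listed in the files. After filterByExpr (minimum count 10) and TMM scaling, treatments were compared with edgeR 4.0.16 (quasi-likelihood test) in R 4.3.3 (limma 3.58.1), without a replicate block, with Benjamini-Hochberg adjustment over all loci of a modification at 0.05. The fit was tested on simulated data. DESeq2 1.42.0, other factors, loess offsets, removal of the GC trend, other filters, all intervals, the replicate block and leaving out each library were alternatives. TSS were those of GENCODE release 44, and tables were made in Python 3.11.15 with pandas 2.3.3 and numpy 2.4.6. CPM use TMM-scaled library sizes, except the promoter levels, which use library totals.

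Named were the 5 higher and 5 lower H3K4me1 loci with the smallest p-values, the highest and widest, the 3 loci with the smallest p-values of each other modification, and genes of 5 lists that passed, were extreme in a list or were MYC, TRIB1, CEBPD, LYN, HSF1 or GSR. Others were named after their values were seen. Members, lists and tests were chosen with earlier results of these data known. A developmental locus within the counts is not reported here by name.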

Additional observations from a re-analysis of the deposited data

How the results depend on the processing

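Over all chromosomes, 276 H3K4me1 loci were called higher and 268 lower. With the GC trend removed these numbers were 134 and 111, and in DESeq2 1 and 42. Over all intervals they were 1341 and 758, and with the replicate block 431 and 388. The number of H3K4me1 calls on chromosome 8 (84) was 38 with the GC trend removed, 3 in DESeq2, 349 over all 7417 intervals and 112 with the replicate number as a block. Leaving out 1 library gave 0 to 99 calls, the lowest on leaving out DMSO replicate 2, and 15 and 19 on leaving out DMSO or PR-957 replicate 1. The median was 0.17 by library size only (all loci 0.083) and 0.057 to 0.14 without 1 library. The 3 H3K27ac calls became 0 with loess offsets or DESeq2, 16 over all intervals and 0 to 4 on leaving out 1 library (0 without PR-957 replicate 2, 1 without DMSO replicate 2), and the median was −0.046 to −0.0060. The 3 H3K4me3 calls became 6 by library size only, 7 with loess offsets, 16 over all intervals and 1 to 4 on leaving out 1 library, the lowest being DMSO replicate 2. The 27 H3K27me3 calls became 92 over all intervals and 10 to 36 on leaving out 1 library, with 10 or 11 for DMSO replicate 1 or 2. The H3K27me3 median (0.020) was 0.23 by library size only, −0.051 with loess offsets, 0.052 without a filter, −0.011 at a mean count of at least 50, −0.0047 over all intervals and −0.012 to 0.050 without 1 library, so its sign depends on the setting. Developmental genes with lower H3K27me3 numbered 7 by library size only or with loess offsets and 5 to 12 without 1 library. The share of loci near a TSS was 17.6% within 1 kb and 25.2% within 5 kb, and the H3K27ac promoter ratio was 1.48 in either DMSO library. Same-numbered libraries did not deviate together (r = 0.034, −0.012, 0.17 and −0.004 for H3K4me1, H3K27ac, H3K4me3 and H3K27me3). The cause of these changes was not tested.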
